A study of Mus musculus with 11 samples.

Results

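The oxidative phosphorylation genes encode the subunits of the 4 respiratory chain complexes and of the ATP synthase. Members were taken by mouse gene symbol, with pseudogenes left out, and were found for 96 of the 53465 genes counted. Of these, 13 lie on the mitochondrial genome and 83 on nuclear chromosomes, and both sets were treated apart throughout. The 13 mitochondrial members fall into complex I (7), complex III (1), complex IV (3) and complex V (2). The 83 nuclear members fall into complex I (36), complex II (4), complex III (8), complex IV (18) and complex V (17). Complexes were assigned by the start of the symbol alone, and the place of each protein was not checked. Their RNA was measured in mPFC CRF1+ neurons, cells of the medial prefrontal cortex that express the type 1 receptor for corticotropin-releasing factor and carry green fluorescent protein in the CRF1:GFP reporter line. All mice were adult males of that line, and each library held the sorted cells of 1 mouse. The 6 naïve mice breathed air and were given pyrazole, an inhibitor of alcohol dehydrogenase. The 5 withdrawn mice were given ethanol and pyrazole with 5 to 6 weeks of chronic intermittent ethanol vapor, and were taken 5 to 8 days into forced abstinence. For 3 of the withdrawn mice (3, 4 and 5) another label reads control. The design text of the series gives 5 control and 6 ethanol samples, which the grouping used here does not match. Groups here follow title and treatment, so values without those 3 mice are given where they change a result.

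Complex I (NADH dehydrogenase) and complex II (succinate dehydrogenase) pass electrons to ubiquinone. Complex III hands them to cytochrome c, and complex IV (cytochrome c oxidase) to oxygen. Complexes I, III and IV pump protons across the inner mitochondrial membrane, and complex V uses the return flow to make ATP, on which neurons rely for ion pumping and synaptic transmission. The mitochondrial genome encodes core subunits, made inside the organelle from polycistronic transcripts, while the nuclear genome encodes all of complex II and most subunits of the other complexes.

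Each mouse gave 7351567 to 22244869 gene counts, from 160 pg of RNA. Levels are CPM, the usual per-million scaling of counts to the TMM-normalized library, in which 3 counts correspond to 0.135 to 0.408 CPM before that normalization. Comparisons come from edgeR's quasi-likelihood test over 17093 genes with Benjamini-Hochberg adjustment, with log2 fold changes of withdrawn against naïve mice. Crhr1, the gene of the receptor, was at 92.4 ± 22.0 CPM (SD, n = 6) in naïve and 88.5 ± 32.6 CPM (n = 5) in withdrawn mice. Some libraries stood apart. Reads outside exons made up 5.77% of tallied reads in naïve mouse 5, against 13.3% to 48.1% in the others, and this mouse had counts on 15585 genes, against 22551 to 31830. Of the 7 fibroblast markers, 6 were tested and had positive log2 fold changes, 5 with an unadjusted p under 0.05. Their summed level was 0.0694 to 71.8 CPM in naïve and 18.4 to 1280 CPM in withdrawn mice, with naïve mouse 5 the lowest. Their part in the results below was not tested.

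The mitochondrial genes could not all be counted. Of the 13, 4 (mt-Nd4l, mt-Co2, mt-Co3 and mt-Atp8) had 0 counts in every mouse, and mt-Atp6 had 1 count in all, in naïve mouse 2. A sixth, mt-Nd3, had 1 to 36 counts per mouse. Reads were 75 bases long and only reads with 1 place in the genome were assigned to genes, so each gene was cut into its 75-base windows and these were looked up among the transcripts of all other annotated genes. For mt-Co3, 99.9% of windows also lie in another gene, for mt-Co2 and mt-Atp6 99.5% each, for mt-Nd4l 98.7% and for mt-Nd3 97.8%. Their near-identical copies are among 7 pseudogenes in a row on chromosome 1 (chr1:24611535-24616197, minus strand, GRCm38), which together held 4 to 14 counts per mouse. The shares were 61.5% for mt-Nd4, 39.8% for mt-Co1, 5.71% for mt-Nd2 and 1.66% for mt-Nd5, and 0% for mt-Nd1, mt-Nd6 and mt-Cytb. The members near 0 are thus those with nearly no window of their own, apart from mt-Atp8. Reads with more than 1 place made up 7.88% to 12.6% of tallied reads, and how many of them came from these genes was not tested.

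**Figure D1:**
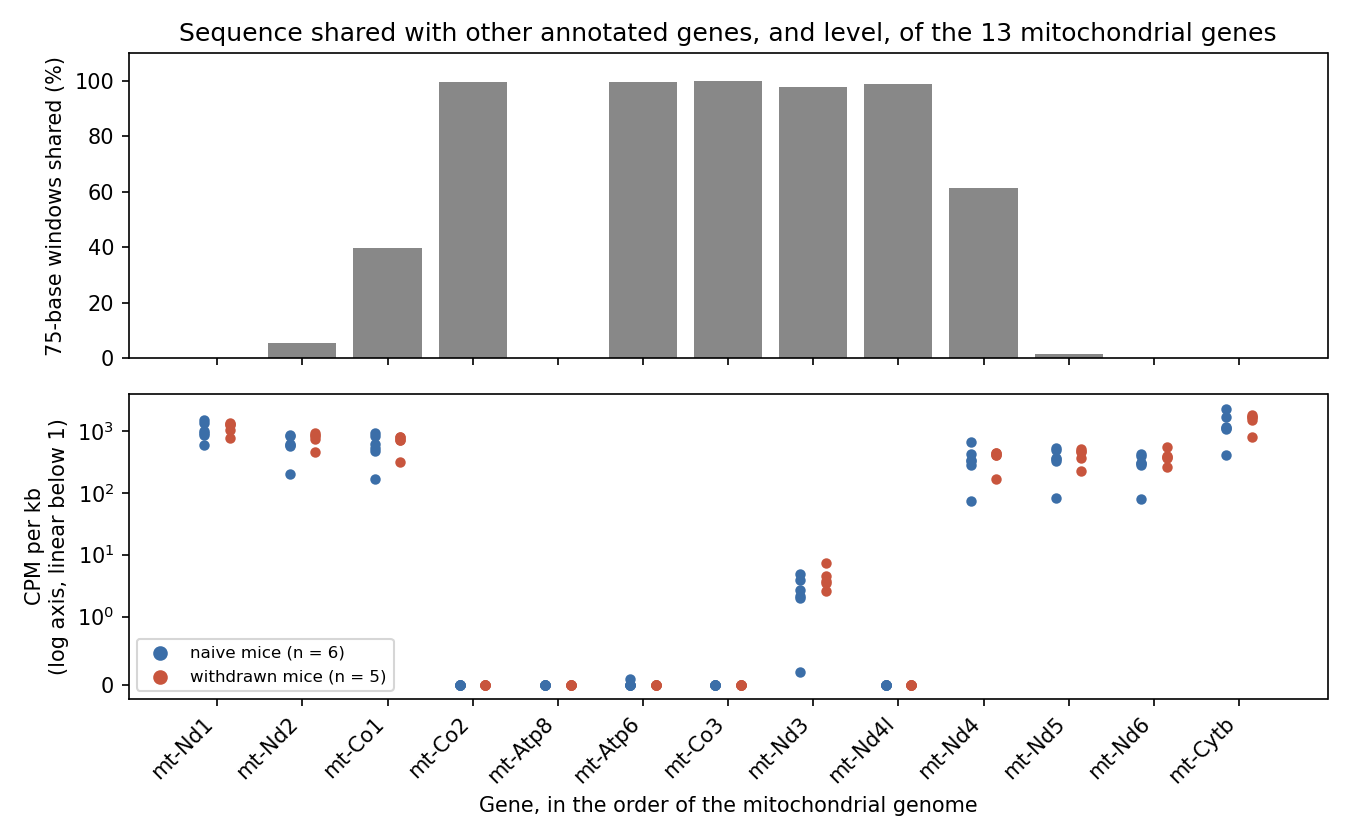
The upper panel shows, for each of the 13 mitochondrial genes, the percent of its 75-base windows that also occur in another annotated gene, and the lower panel its CPM per kb of exon in each of 11 mice (axis logarithmic above 1). The genes from mt-Co2 to mt-Nd4l lie near 0 CPM per kb, and all of these but mt-Atp8 share over 97% of windows, while mt-Nd1, mt-Nd6 and mt-Cytb share none.

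The following stretches, from GENCODE M21 transcripts on GRCm38, show what a 75-base read can and cannot tell apart. Capitals in mt-Nd3 (chrM:9459-9548, plus strand, its first 90 bases) mark the run that is identical in the pseudogene Gm28438, which goes on to position 345 of 348. Positions are counted from the 5′ end of each mitochondrial gene, with the gene's base before and the pseudogene's base after the position. The base before the run is T3C. Capitals in mt-Co1 (chrM:6368-6467, plus strand) mark the start of the run of 479 bases identical in Gm29216, after the difference A1066T. For mt-Atp8 (chrM:7766-7969, plus strand, the whole gene) capitals mark the 43 bases that it shares with the start of the overlapping mt-Atp6.
mt-Nd3: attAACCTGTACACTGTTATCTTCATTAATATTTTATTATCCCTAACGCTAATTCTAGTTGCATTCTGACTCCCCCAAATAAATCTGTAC
mt-Co1: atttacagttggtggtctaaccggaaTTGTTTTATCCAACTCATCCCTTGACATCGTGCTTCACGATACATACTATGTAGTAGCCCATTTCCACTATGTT
mt-Atp8: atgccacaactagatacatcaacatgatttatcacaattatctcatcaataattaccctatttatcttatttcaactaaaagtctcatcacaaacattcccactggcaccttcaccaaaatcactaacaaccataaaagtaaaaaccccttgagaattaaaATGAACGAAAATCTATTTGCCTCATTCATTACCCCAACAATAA

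mt-Atp8, a small subunit of the ATP synthase, has no annotated copy. It begins in the 230 bases between mt-Co2 and the start of mt-Atp6, and its last 43 bases lie within mt-Atp6. On chromosome 1 the copies of those neighbours, Gm28661 and Gm10925, are 233 bases apart, a stretch with no annotated gene, whose sequence was not used here. For mt-Co2, mt-Co3 and mt-Nd4l, with nearly no window of their own, a count of 0 is a count of reads assigned, not a level. Why mt-Atp8 had a count of 0 was not tested, and whether that count reflects its level is not known.

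The other mitochondrial genes were among the abundant members, at 339.9 to 1383 CPM per kb over 11 mice. mt-Cytb, the cytochrome b core of complex III, had the highest level per length (1383 ± 527 CPM per kb, SD, n = 11). mt-Nd1, a membrane subunit of complex I, followed at 1081 ± 282 CPM per kb. mt-Nd2 had 678 ± 217 CPM per kb and mt-Co1, the catalytic core of complex IV, 626 ± 235 CPM per kb. The means of mt-Nd5 (381 ± 135), mt-Nd4 (359.8 ± 154) and mt-Nd6 (339.9 ± 119 CPM per kb) were lower. These SDs are between mice, and differences between genes within the same mice were not tested. The order depends on the windows that can be counted. Divided by windows of its own, in naïve mice, mt-Nd4 had 958 ± 527 CPM per 1000 windows (n = 6) in place of 351 ± 193 CPM per kb, and mt-Co1 1038 ± 481 in place of 596 ± 276. mt-Nd1 moved little, from 1034 ± 330 CPM per kb to 1118 ± 357 CPM per 1000 windows.

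For each of the 8 mitochondrial members that passed the filter on low counts, the mean level was higher in withdrawn than in naïve mice, and no difference passed the test. None was called at an adjusted p of 0.05 and a log2 fold change beyond 0.6, a rule that called 0.00585% of all genes tested. None had an unadjusted p under 0.05, and DESeq2 and voom called none either. Log2 fold changes ran from 0.08 for mt-Nd4 to 0.73 for mt-Nd3, with a median of 0.20 beside 0.01 over all genes tested. A positive value was found for 51.4% of all genes.

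mt-Cytb ranged from 475 to 2594 CPM in naïve mice (median 1289), and was at 1951, 907, 1925, 2085 and 1698 CPM in withdrawn mice 1 to 5. Its log2 fold change was 0.22 ± 0.34 (SE; edgeR adjusted p = 0.94). mt-Co1 lay between 257 and 1453 CPM (median 891) in naïve mice, and at 1085, 483, 1225, 1085 and 1221 CPM in withdrawn mice (log2 fold change 0.15 ± 0.35, edgeR adjusted p = 0.97). For both genes every withdrawn mouse lay within the naïve range, with naïve mouse 5 lowest of all and withdrawn mouse 2 lowest of its group.

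Among the complex I genes, mt-Nd1 ranged from 564 to 1413 CPM (median 913) in naïve mice and 999.7, 738, 1240, 1169 and 1288 CPM in withdrawn mice (log2 fold change 0.14 ± 0.23). For mt-Nd2 the naïve mice held 208 to 895 CPM (median 628), and the withdrawn mice 766, 469, 874, 959 and 861 CPM (0.31 ± 0.30). mt-Nd6, the gene read from the opposite strand, spanned 40.1 to 213 CPM (median 153) in naïve mice and had 187, 132, 194, 279 and 200 CPM in withdrawn mice (0.41 ± 0.32). Naïve mouse 5 was thus the lowest for genes annotated on both strands, though unstranded reads do not tell which strand a count came from. Levels of mt-Nd4 were 102 to 909 CPM (median 454) in naïve and 559, 233, 592, 598 and 559 CPM in withdrawn mice (0.08 ± 0.40). Those of mt-Nd5 were 152 to 950 CPM (median 651), against 849, 411, 831, 937 and 669 CPM (0.19 ± 0.35). For mt-Nd3, counts were 13, 14, 10, 12, 1 and 27 in naïve mice 1 to 6 and 13, 11, 34, 11 and 36 in withdrawn mice (0.73 ± 0.77). No adjusted p for these 6 genes was under 0.86 in this fit.

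**Figure D2:**
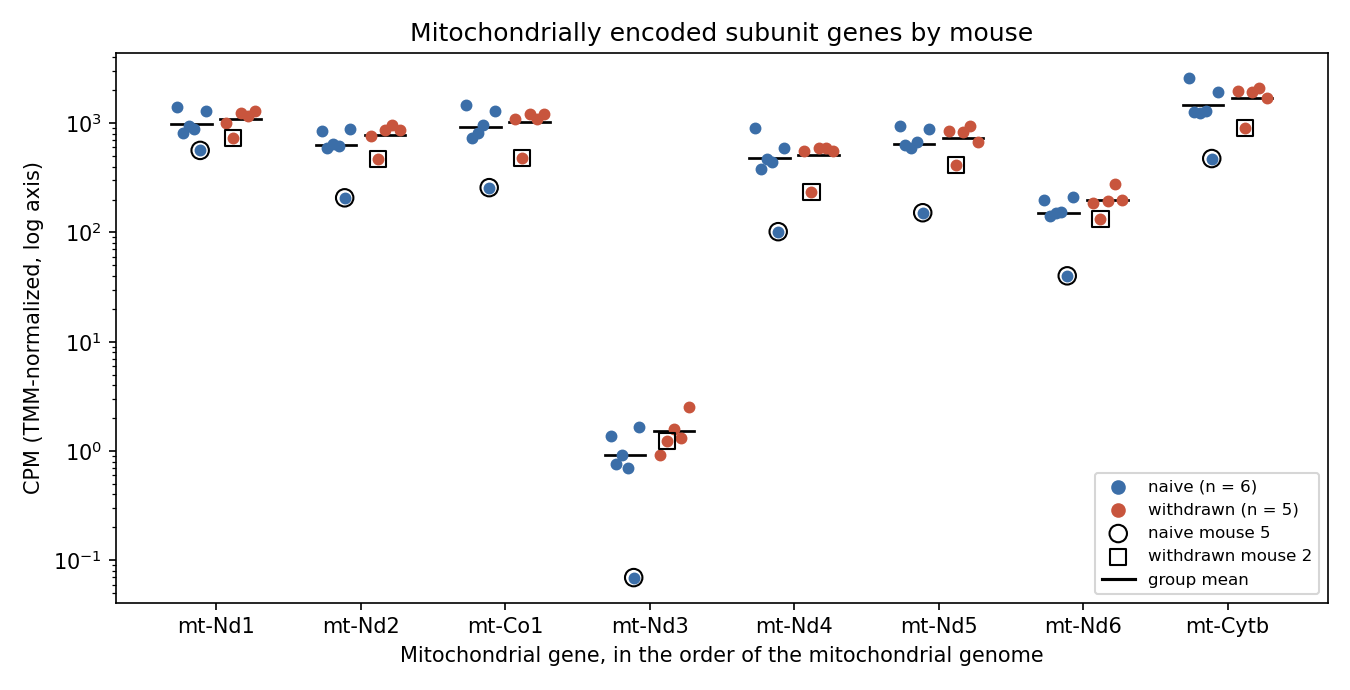
CPM (log axis) of the 8 tested mitochondrial genes in 6 naïve (blue) and 5 withdrawn mice (red), each point a mouse and each black line a group mean. Naïve mouse 5 (circle) is the lowest of the 11 mice for all 8 genes, and withdrawn mouse 2 (square) is the lowest of its group for all but mt-Nd3.

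The 13 genes together took 0.519% ± 0.219 (SD, n = 6) of gene counts in naïve mice, from 0.165% to 0.796%, and 0.624% ± 0.168 (n = 5) in withdrawn mice, from 0.346% to 0.802%. The groups overlapped. Naïve mouse 5 held the lowest value for all 8 tested genes, with a median 1.98 below that of the 11 mice on the log2 scale. The mitochondrial ribosomal RNAs mt-Rnr1 and mt-Rnr2, which are no members, were lowest in the same mouse, at 0.0149% of gene counts against 0.0992% to 0.220% in the others. The median log2 fold change was 0.03 without naïve mouse 5, with 5 of 8 genes higher and 3 lower. Without the 3 withdrawn mice with conflicting labels it was -0.07, with 2 genes higher and 6 lower. That fit keeps withdrawn mice 1 and 2, and mouse 2 held the lowest share of its group (0.346%). With withdrawn mouse 3, 4 or 5 left out singly, all 8 genes stayed higher. Without withdrawn mouse 2 the median was 0.36. The direction therefore depends on which mice are kept.

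Of the 83 nuclear members, 79 passed the filter, and 75 of these had a lower fitted level in withdrawn than in naïve mice, where 48.6% of all genes tested did. None was called by edgeR (0.00585% of all genes tested) or voom. The median log2 fold change was -0.32, with quartiles of -0.41 and -0.22, beside 0.01 over all genes tested. An unadjusted p under 0.05 was found for 5 members with lower values, where 2.18% of all genes tested had one, and for 1 with higher values, where 4.94% did. For no tested member did the groups separate without overlap, which 0.924% of all genes did. In bulk RNA from sorted cells, fewer cells of a type and less RNA per cell cannot be told apart.

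The lower values came with 2 high naïve mice. Naïve mouse 1 was the highest of the 11 mice for 63 of 79 tested nuclear members, and naïve mouse 5 for 11. Their median difference from the median mouse was 0.95 and 0.43 on the log2 scale, while the other 4 naïve mice lay between -0.08 and 0.00. The withdrawn mice lay between -0.24 (mouse 4) and 0.19 (mouse 5), and so on both sides of those 4 naïve mice. Withdrawn mouse 4 was the lowest for 36 members and withdrawn mouse 2 for 21. These 2 libraries had the most reads outside exons, 48.1% and 39.6% of tallied reads, against at most 31.5% in the other mice. The 6 general neuron markers all had negative log2 fold changes as well (median -0.22, and -0.21 without naïve mouse 1), with a summed level of 9466 to 12610 CPM in naïve and 6087 to 9868 CPM in withdrawn mice. Of the 6 excitatory neuron markers, 5 had negative values (median -0.16). The part of these libraries and markers in the result was not tested.

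Without naïve mouse 1 the median log2 fold change of the nuclear members was -0.13, with 65 of 79 lower (48.2% of all genes) and no lower member with an unadjusted p under 0.05. Without naïve mice 1 and 5, a setting chosen after seeing the data, it was -0.02, with 44 of 78 lower beside 47.3% of all genes. With voom, which weights the libraries by quality, it was -0.095, with 62 of 79 lower beside 54.5% of all genes. Without the 3 withdrawn mice with conflicting labels it was -0.40, with 75 of 79 lower beside 10566 of all 21298 genes tested in that fit.

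Other genes of like size and level were also high in naïve mouse 1. Among genes above 50 CPM with at most 1500 exon bases, limits also chosen after seeing the data, 205 were no members. Their median difference from the median mouse was 0.78 in naïve mouse 1 and 0.38 in naïve mouse 5, and their median log2 fold change was -0.25, with 85.9% below 0. For the 4531 other genes above 50 CPM with longer exons, those values were -0.01, 0.07 and -0.10, with 66.1% below 0. The nuclear members had a median log2 fold change of -0.35 at up to 1500 exon bases (37 members) and of -0.28 above it (42 members), where naïve mouse 1 was at 1.06 and 0.88. By this measure the longer members stood above longer genes in general in naïve mouse 1. Exon bases join all annotated transcripts of a gene, and its main transcript can be far shorter. For Atp5l it had 544 of 6443 bases and for Ndufb7 623 of 4522. Whether members with a long main transcript stood above other such genes was not tested. Naïve mouse 1 also had the largest share of reads with more than 1 place (12.6%). The part of gene length and of the library in the result was not tested.

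**Figure D3:**
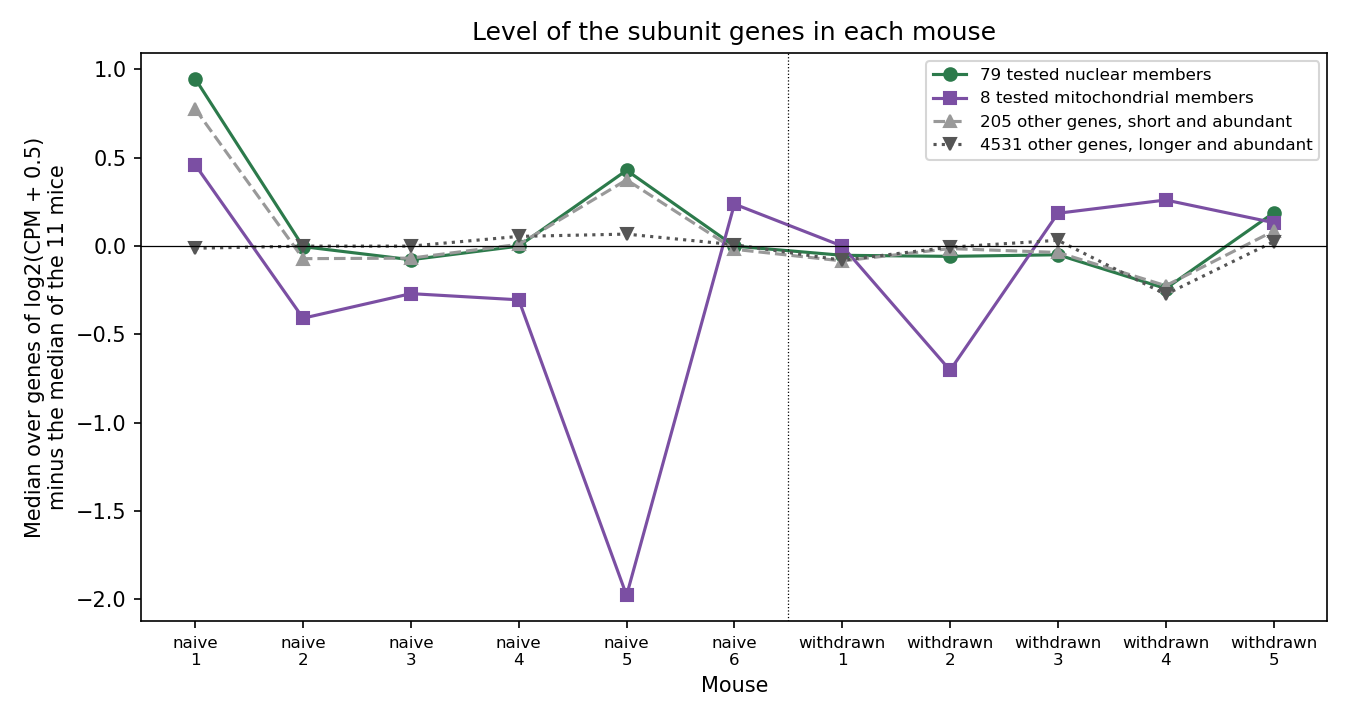
For each mouse, the median over genes of log2(CPM + 0.5) minus the median of the 11 mice, for tested nuclear members (circles), mitochondrial members (squares) and other genes above 50 CPM that are short (up) or longer (down triangles). Nuclear members and other short genes peak in naïve mouse 1 (0.95 and 0.78), while mitochondrial members have their lowest value, -1.98, in naïve mouse 5.

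Nuclear and mitochondrial members went apart in naïve mouse 5, while their relation over all mice was not tested. In naïve mouse 5 the nuclear members took 2.18% of gene counts and the mitochondrial ones 0.165%, a ratio of 13.2, whereas the ratio was 2.05 to 5.04 in the other 10 mice. In naïve mouse 1 both were high, at 2.94% and 0.796%, with a ratio of 3.69. Over groups, nuclear members took 2.03% ± 0.48 (SD, n = 6) of gene counts in naïve and 1.76% ± 0.13 (n = 5) in withdrawn mice, and the ranges of 1.72% to 2.94% and 1.65% to 1.98% overlapped.

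Complex I carries the most nuclear members, and all 36 were tested and had a negative log2 fold change, with a median of -0.32 (-0.14 without naïve mouse 1, with 33 of 36 lower). The summed level was 7096 ± 2118 CPM (SD, n = 6) in naïve and 5722 ± 628 CPM (n = 5) in withdrawn mice. Among them, 3 had an unadjusted p under 0.05. Ndufb6, an accessory subunit of the membrane arm (chr4:40270591-40279421), was at 80.2 to 174 CPM in naïve mice (median 103) and at 70.8, 67.9, 82.5, 65.4 and 104 CPM in withdrawn mice. Its log2 fold change was -0.57 ± 0.22 (SE; edgeR adjusted p = 0.53, 0.34 to 0.99 over the alternatives), and -0.42 without naïve mouse 1. All withdrawn mice but mouse 5 lay below the naïve median. Another gene overlaps 39% of its exon bases. Whether reads there were left out as ambiguous depends on the strand setting of the counting, which is not given.

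Ndufc1, an accessory subunit of the same arm (chr3:51404677-51408988), had 92.5 to 234 CPM in naïve mice (median 111) and 104, 72.4, 93.1, 85.4 and 104 CPM in withdrawn mice. The log2 fold change was -0.59 ± 0.25 (edgeR adjusted p = 0.64) and -0.38 without naïve mouse 1. Naïve mice 1 and 5 (234 and 185 CPM) stood above all other mice. Ndufs4, an accessory subunit of the peripheral arm whose loss in mice is used as a model of Leigh syndrome (chr13:114287795-114388258), had 144 to 299 CPM in naïve mice (median 156) and 132, 129, 105, 99.0 and 164 CPM in withdrawn mice. Its log2 fold change was -0.50 ± 0.22 (edgeR adjusted p = 0.65) and -0.29 without naïve mouse 1. The 4 lowest withdrawn mice lay below every naïve mouse, and mouse 5 within the naïve range. Ndufs1, the core subunit that holds iron-sulfur clusters next to the NADH site, had a log2 fold change of -0.14 ± 0.17. It spanned 157 to 253 CPM in naïve and 133 to 199 CPM in withdrawn mice, with naïve mouse 5 the highest. Per length of exon, Ndufc2 was the highest of complex I (345 ± 70.3 CPM per kb, n = 11) and Ndufb2 the lowest (10.9 ± 3.15 CPM per kb). The first place depends on the length used. Over the main transcript alone, a measure added after seeing the data, Ndufa4 (634 CPM per kb) and Ndufa11 (463) stood above Ndufc2 (381).

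Complex II, encoded in the nucleus alone, was split. Sdha, the flavoprotein that oxidizes succinate, spanned 341 to 482 CPM in naïve mice (median 433) and had 488, 414, 547, 371 and 533 CPM in withdrawn mice (log2 fold change 0.14 ± 0.15, edgeR adjusted p = 0.91). Unlike most members, it was lowest in naïve mouse 1. Sdhb, the iron-sulfur subunit bound to it (chr4:140961203-140979193), spanned 319 to 612 CPM (median 359.9) in naïve mice, highest in naïve mice 1 and 5, and had 307, 309, 326, 221 and 376 CPM in withdrawn mice. Its log2 fold change was -0.46 ± 0.21 (edgeR adjusted p = 0.69), and -0.32 without naïve mouse 1. The membrane anchors differed as well. Sdhc spanned 31.5 to 91.4 CPM in naïve and 54.9 to 70.5 CPM in withdrawn mice (0.11 ± 0.24), with naïve mouse 5 the lowest of all, while Sdhd, 139.5 to 292 CPM in naïve and 120.3 to 195 CPM in withdrawn mice (-0.30 ± 0.23), was highest in naïve mouse 5. Whether these fold changes differ from each other was not tested.

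All 8 nuclear members of complex III had a negative log2 fold change (median -0.34, and -0.12 without naïve mouse 1). Uqcrc2, a core protein of the matrix side (chr7:120635176-120659524), was at 243 to 409 CPM in naïve mice (median 264) and at 212, 193, 250.4, 179.7 and 263 CPM in withdrawn mice. Its log2 fold change was -0.40 ± 0.18 (edgeR adjusted p = 0.65), and -0.28 without naïve mouse 1. Of the withdrawn mice, 1, 2 and 4 lay below every naïve mouse. Uqcrfs1, the Rieske iron-sulfur protein, had -0.43 ± 0.21, with 183 to 387 CPM in naïve and 142 to 249 CPM in withdrawn mice. The values nearest 0 were those of the small subunits Uqcr11 (-0.17 ± 0.21) and Uqcrb (-0.22 ± 0.23), and both turned positive without naïve mouse 1 (0.02 and 0.04). Levels per length ran from 112 ± 38.2 CPM per kb for Uqcrq to 339 ± 116 CPM per kb for Uqcr10, a narrower span than in complex IV.

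Of the 18 nuclear members of complex IV, 14 were tested and 13 of these had a negative log2 fold change (median -0.37, and -0.10 without naïve mouse 1). Cox7c, a small membrane subunit, was nearest 0 (-0.07 ± 0.17), with 61.9 to 93.8 CPM in naïve mice and 59.5 to 88.2 CPM in withdrawn mice. About its level less can be said, since 50.4% of the windows of its main transcript also lie in other genes. Cox8a had the highest level per length of the nuclear members (833 ± 247 CPM per kb, n = 11), and Cox4i1 followed at 567 ± 159 CPM per kb. Over the length of the main transcript alone, a measure added after seeing the data, Cox4i1 (1034 CPM per kb) stood above Cox8a (937 CPM per kb).

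In complex V, 16 of 17 members had a negative log2 fold change (median -0.28, and -0.12 without naïve mouse 1). Atp5b, the catalytic beta subunit, was the most abundant per length (419.5 ± 53.1 CPM per kb) and varied little, from 1698 to 2071 CPM in naïve mice and 1606, 1791, 1996, 1258 and 1811 CPM in withdrawn mice (log2 fold change -0.13 ± 0.14). Withdrawn mouse 4 alone stood below the rest. Atp5k, the e subunit that helps to join synthase dimers, had the most negative value (-0.51 ± 0.27), with 80.0 to 210.2 CPM in naïve and 63.8 to 96.0 CPM in withdrawn mice, followed by Atp5j2 (-0.42 ± 0.25). Without naïve mouse 1 these values were -0.27 and -0.12. Atp5l, the g subunit, was the exception with 0.16 ± 0.58. Its levels were 1.5 to 26.6 CPM in withdrawn mice, highest in mouse 2, and without that mouse its log2 fold change was -0.46. It was 0.71 without the 3 withdrawn mice with conflicting labels, a fit that keeps mouse 2. For this gene 63.4% of the windows of the main transcript lie in other genes, and its 1.66 ± 1.03 CPM per kb was the lowest of complex V.

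**Figure D4:**
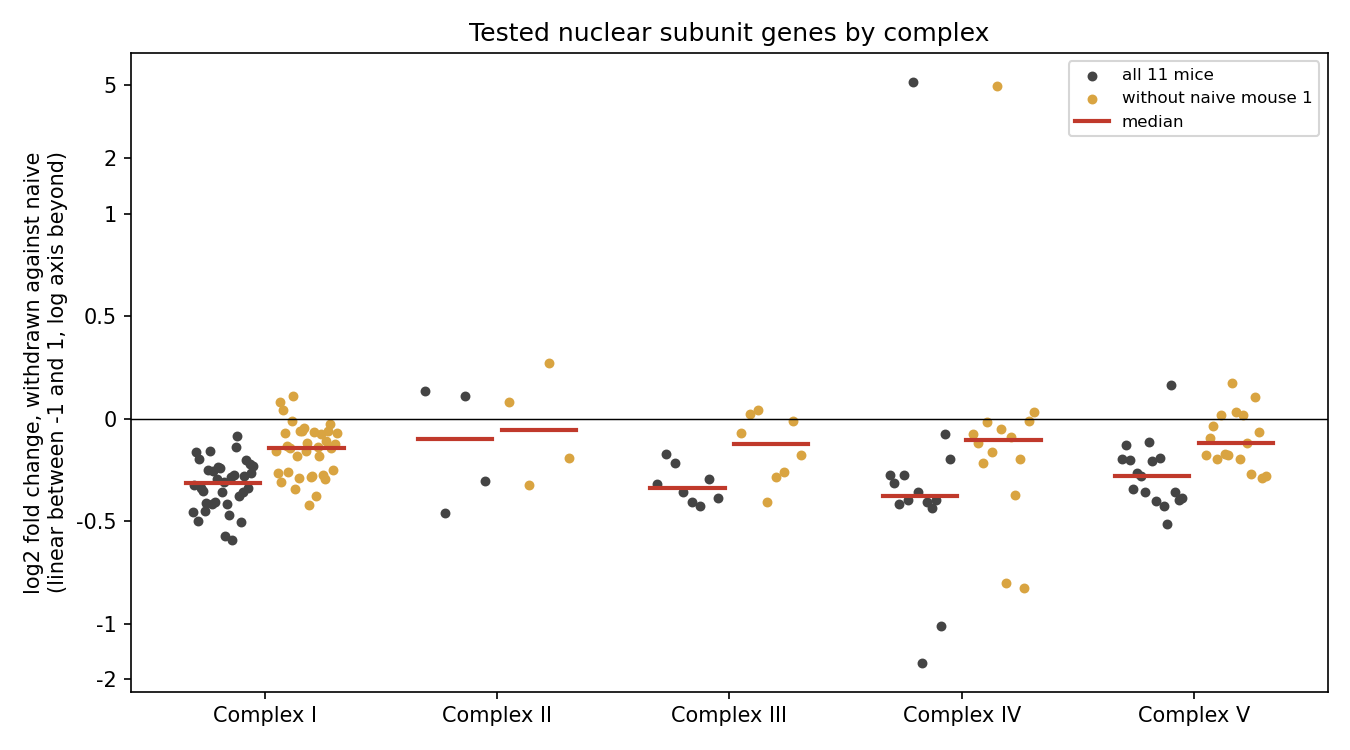
Log2 fold change, withdrawn against naïve, of each tested nuclear member by complex, with all 11 mice (dark) and without naïve mouse 1 (yellow). Red lines are medians, and the axis is linear between -1 and 1 and logarithmic beyond. With all mice, the medians of complexes I, III, IV and V lie between -0.37 and -0.28, and without naïve mouse 1 between -0.14 and -0.10.

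Several subunits exist as isoforms from separate genes, and in these cells the ubiquitous form was far above the others. Cox6a1 had 417 ± 146 CPM per kb (SD, n = 11) and its heart and skeletal muscle form Cox6a2 0.61 ± 1.46, with counts in 2 mice (51 in naïve mouse 2 and 19 in withdrawn mouse 5). Cox7a2 had 354 ± 149 CPM per kb and the muscle form Cox7a1 2.5 ± 3.18. Cox7a2l, a factor for joining complexes into supercomplexes, lay between them at 55.0 ± 17.9 CPM per kb. Cox7b had 165 ± 51.0 CPM per kb and its testis form Cox7b2 2.09 ± 1.86. Cox4i2, Cox8b and Cox8c did not pass the filter, with 0 to 14, 0 to 1 and 0 to 7 counts per mouse. Beside them, Cox4i1 and Cox8a were the most abundant nuclear members of the complex per length. Of the genes of the c subunit, which forms the rotor ring of the synthase, Atp5g3 (173 ± 54.8 CPM per kb) exceeded Atp5g1 (35.6 ± 10.7) and Atp5g2 (10.9 ± 3.83). The gap to Atp5g1 depends on length, since Atp5g3 has 2181 exon bases and Atp5g1 has 4912. Not divided by length, the means in naïve mice were 401 ± 158 CPM for Atp5g3 and 194 ± 61.6 CPM for Atp5g1. For Atp5g2, 86.9% of the windows of the main transcript lie in other genes, so its level is uncertain.

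The muscle form Cox7a1 had the most negative log2 fold change of the tested members, -1.63 ± 1.03 (edgeR adjusted p = 0.82), on counts of 59, 19, 14, 4, 19 and 25 in naïve mice 1 to 6 and of 5, 0, 9, 8 and 19 in withdrawn mice. Without naïve mouse 1 it was -0.80, and without the 3 withdrawn mice with conflicting labels it was -3.35. Cox7b2 had -1.02 ± 1.04 (edgeR adjusted p = 0.90), on 0 to 45 counts in naïve and 3 to 19 in withdrawn mice. Counts this low leave both differences within the spread between mice.

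Cox6b2, a form of the intermembrane subunit 6B known from testis (chr7:4751792-4753094), had the largest positive log2 fold change of the tested members. It had 0 counts in 5 naïve mice and 23 in naïve mouse 4 (1.33 CPM). Withdrawn mice 1 to 5 had 370, 2, 187, 63 and 20 counts, or 25.9, 0.224, 8.77, 7.60 and 1.42 CPM. All withdrawn mice but mouse 2 were above the highest naïve mouse, and withdrawn mouse 1 gave 59.0% of the summed withdrawn level. The log2 fold change was 5.19 ± 1.58 (edgeR adjusted p = 0.33), so it was not called, and it was 4.23 (adjusted p = 0.88) without withdrawn mouse 1. DESeq2 gave 5.36 and an adjusted p of 0.040, which made it the 1 member that tool called, where it called 1.66% of genes with an adjusted p, 1.57% as higher in withdrawn mice. Adjusted p values ran from 0.040 to 0.88 over the alternatives in which it was tested. It did not pass the filter without naïve mouse 4 or with at least 10 counts required in every mouse. The fitted fold change of a gene with so many 0 counts depends on the model. The mean level was 0.222 ± 0.543 CPM (SD, n = 6) in naïve and 8.78 ± 10.3 CPM (n = 5) in withdrawn mice, where Cox6b1, the ubiquitous form, stood at 302 ± 31.5 CPM. Cox6b1 was at 398 ± 153 CPM in naïve mice (log2 fold change -0.40 ± 0.22, edgeR adjusted p = 0.78, and -0.16 without naïve mouse 1, which had 699 CPM).

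Cox6b2 followed the fibroblast markers within the withdrawn group. Their summed levels in withdrawn mice 1 to 5 were 1280, 18.4, 674, 909.5 and 225 CPM, so that mouse 1 was highest and mouse 2 lowest for both, with mice 3 and 4 in exchanged places. Among naïve mice, mouse 4, the 1 with Cox6b2 counts, was the next to highest for the markers (50 CPM), below mouse 3 (71.8 CPM) with none. The part of these markers in the Cox6b2 result was not tested.

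**Figure D5:**
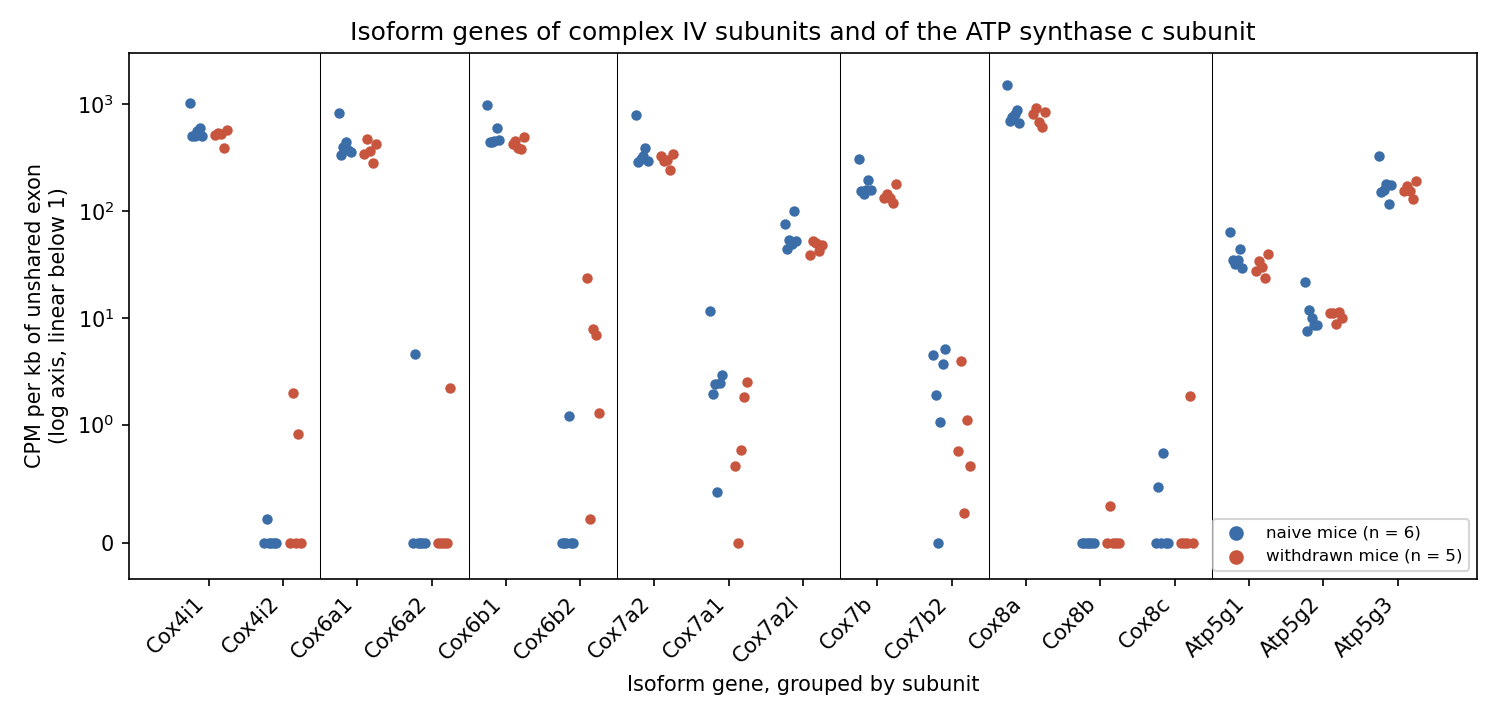
CPM per kb of exon (axis logarithmic above 1) of the isoform genes of 6 complex IV subunits and of the ATP synthase c subunit in naïve (blue) and withdrawn (red) mice, each point a mouse. The ubiquitous form stands above the tissue-restricted forms of the same complex IV subunit in every mouse, and Cox6b2 is at 0 in 5 naïve mice and above 0 in all 5 withdrawn mice.

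Promoters of the nuclear members were searched for motifs of factors known to control respiratory genes. RefSeq sequence (GRCm38.p6) was found by symbol for 66 of 83 members, with 71 promoters, and the 250 bases before the start were read on both strands. At least 1 of the 3 motifs was found for 23 of the 66, in 35.2% of member promoters and in 14.2% of all promoters. TGCGCA, the repeated core of the site of NRF1 and its own reverse complement, was found in 19.7% of member promoters and in 6.43% of all 32851 promoters. CCGGAAG, a core of ETS factors such as GABP, was found in 16.9% and 6.91%. ATGGCGG, a core of YY1 sites, was found in 7.04% and 2.21%. Since matches are only letters, none is shown to be a site. Tested members with an NRF1 match had a median log2 fold change of -0.28 (13 genes) and those without -0.34 (52 genes). With an ETS match it was -0.30 (12 genes) and without -0.34 (53 genes), and neither difference was tested. Among the 66, 4 members held both an NRF1 and an ETS match within 1 promoter, Atp5l, Cox6a1, Ndufb6 and Sdhd, and their windows are shown for that reason, beside those of Cox6b1 and Cox6b2, whose values went apart. Capitals mark the matches, which do not overlap each other. All 6 windows lie on the minus strand, at chr9:44920743-44920992, chr5:115348959-115349208, chr4:40279422-40279671, chr9:50603850-50604099, chr7:30626115-30626364 and chr7:4753095-4753344 in this order, and the sequences read 5′ to 3′ on that strand.
Atp5l: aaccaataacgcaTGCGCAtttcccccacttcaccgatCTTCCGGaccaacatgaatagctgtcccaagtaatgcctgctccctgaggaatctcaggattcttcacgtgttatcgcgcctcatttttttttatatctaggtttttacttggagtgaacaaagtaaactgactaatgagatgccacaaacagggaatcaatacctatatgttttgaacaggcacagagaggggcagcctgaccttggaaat
Cox6a1: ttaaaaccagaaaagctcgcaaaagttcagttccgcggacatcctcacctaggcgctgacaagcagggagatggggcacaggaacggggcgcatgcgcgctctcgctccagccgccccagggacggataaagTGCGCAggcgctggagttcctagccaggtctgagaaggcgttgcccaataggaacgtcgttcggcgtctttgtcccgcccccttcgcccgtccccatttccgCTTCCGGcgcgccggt
Ndufb6: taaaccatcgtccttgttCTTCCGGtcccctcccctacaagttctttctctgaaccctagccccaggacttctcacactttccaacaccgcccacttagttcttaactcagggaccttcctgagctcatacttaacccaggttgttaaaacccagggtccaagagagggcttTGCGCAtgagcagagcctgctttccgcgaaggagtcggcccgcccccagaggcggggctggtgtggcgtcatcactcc
Sdhd: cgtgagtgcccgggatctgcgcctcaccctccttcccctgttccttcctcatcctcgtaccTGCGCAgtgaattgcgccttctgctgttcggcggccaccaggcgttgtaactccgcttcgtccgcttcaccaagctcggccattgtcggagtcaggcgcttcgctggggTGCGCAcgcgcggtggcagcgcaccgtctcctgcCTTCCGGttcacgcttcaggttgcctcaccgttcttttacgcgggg
Cox6b1: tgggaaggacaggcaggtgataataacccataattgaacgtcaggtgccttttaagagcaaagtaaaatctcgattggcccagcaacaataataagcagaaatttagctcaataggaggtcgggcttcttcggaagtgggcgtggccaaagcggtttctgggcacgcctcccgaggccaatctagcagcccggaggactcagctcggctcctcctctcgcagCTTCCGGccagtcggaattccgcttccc
Cox6b2: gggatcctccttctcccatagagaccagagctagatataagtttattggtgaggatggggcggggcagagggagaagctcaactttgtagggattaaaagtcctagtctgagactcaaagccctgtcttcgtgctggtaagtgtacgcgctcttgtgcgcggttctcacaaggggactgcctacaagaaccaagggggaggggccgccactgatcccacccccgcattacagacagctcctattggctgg
Sdhd holds 2 NRF1 matches and an ETS match that ends 40 bases before the start, and in Cox6a1 the ETS match ends 10 bases before it. The Cox6b1 window has an ETS match 22 to 28 bases before the start, and the Cox6b2 window holds none of the 3 motifs, which says only that these letters are not in it.

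Other genes of the pathway were read from lists. Of 5 genes outside the symbol rule that were listed with the subunits, all were tested and had negative log2 fold changes (median -0.34, and -0.30 without naïve mouse 1). Among these 5, Atpif1 is a regulator and not a subunit. Atpif1, the inhibitor of ATP hydrolysis by the synthase, had 251 to 526 CPM in naïve and 227, 204, 215, 179.6 and 270.5 CPM in withdrawn mice (log2 fold change -0.54 ± 0.21, edgeR adjusted p = 0.56). All withdrawn mice but mouse 5 lay below every naïve mouse. Cyc1, the cytochrome c1 of complex III, had -0.33 ± 0.20, and Ndufa4l2, at 0 to 5.31 CPM, had -1.83 ± 1.5. Of 45 tested assembly factors of the 5 complexes, 37 had negative values (median -0.24, and -0.17 without naïve mouse 1), 3 with an unadjusted p under 0.05. These were Ndufaf4 of complex I (-0.52 ± 0.22), Bcs1l, which inserts the Rieske protein (-0.60 ± 0.27), and Cox10, which makes heme for complex IV (-0.56 ± 0.25). None of the listed pathway genes was called.

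Electron carriers and the exchange of ADP and ATP had 12 of 19 tested genes with negative values (median -0.20, and -0.11 without naïve mouse 1). Coq6, a hydroxylase of ubiquinone synthesis, was the 1 pathway gene of 113 tested without overlap between the groups, which 0.924% of all genes showed in either direction. It had 36.5 to 42.3 CPM in naïve mice and 30.7, 24.7, 35.1, 16.4 and 27.6 CPM in withdrawn mice (-0.53 ± 0.22, edgeR adjusted p = 0.64), and naïve mouse 1, at 36.5 CPM, was the lowest naïve mouse for it. Withdrawn mice lay below naïve mice without overlap for 0.24% of all genes tested. The porins Vdac2 (-0.38 ± 0.17) and Vdac3 (-0.57 ± 0.21) also had unadjusted p values under 0.05, and Cycs, cytochrome c, had -0.40 ± 0.21. In the TCA cycle, 11 of 16 genes had negative values (median -0.15, and -0.10 without naïve mouse 1). Of the subunits of succinyl-CoA ligase, Sucla2 had -0.56 ± 0.25 (edgeR adjusted p = 0.65) and Suclg1 -0.19 ± 0.14 (edgeR adjusted p = 0.85). Suclg2 had 2.41 ± 0.92 (edgeR adjusted p = 0.52), on 0 to 2.21 CPM in naïve and 11.1, 6.61, 3.56, 6.88 and 1.63 CPM in withdrawn mice.

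Regulators had values on both sides of 0. Of 11 tested regulators of mitochondrial biogenesis, 6 had positive and 5 negative values (median 0.07, and 0.20 without naïve mouse 1), and of 17 tested genes of mitochondrial DNA and RNA maintenance 8 had positive and 9 negative values (median -0.06). Ppargc1a, the coactivator that drives biogenesis, had 13.7 to 33.1 CPM in naïve and 23.9, 8.29, 23.9, 21.4 and 12.3 CPM in withdrawn mice (-0.56 ± 0.35, edgeR adjusted p = 0.81). Tfam, which packs and transcribes mitochondrial DNA, was at 40 CPM in both groups (0.00 ± 0.24). Nfe2l2, a factor of the oxidative stress response, had 0 to 15.6 CPM in naïve and 85.1, 0.448, 73.4, 98.0 and 30.0 CPM in withdrawn mice (2.68 ± 0.98, edgeR adjusted p = 0.50). Withdrawn mouse 2 was low for this gene, for Cox6b2 and for the fibroblast markers (18.4 CPM, against 225 to 1280 CPM in the other withdrawn mice), and their part in it was not tested.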

How the data were processed

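RNA from GFP-sorted mPFC CRF1+ neurons of single mice was sequenced as unstranded 75-nt reads. The authors trimmed reads, mapped them to GRCm38 and assigned them to Ensembl genes with HTSeq. Deposited values are raw counts that were neither normalized nor pooled. With what strand setting reads were counted is not given in the sources used here. Symbols and coordinates are from GENCODE M21 on GRCm38, which names 53274 of 53465 genes. Rows that name no gene (reads outside exons, ambiguous or with more than 1 place) stayed out of library sizes and made up 18.9% to 58.0% of tallied reads per mouse.

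Withdrawn and naïve mice were compared with edgeR 4.0.16 in R 4.3.3 (TMM, filterByExpr with a minimum count of 10 and a minimum total of 15, quasi-likelihood test, Benjamini-Hochberg adjustment over all 17093 genes tested), which was tested on simulated data. Calls needed an adjusted p no larger than 0.05 and a log2 fold change past 0.6 in size. The SE is the log2 fold change divided by the root of F. DESeq2 1.42.0, limma 3.58.1 (voom with quality weights), other scalings and filters, a replicate block and fits that leave out mice were the alternatives. Log2 levels had 0.5 CPM added. Levels per length divide CPM by exon bases that no other gene overlaps. Named genes were all mitochondrial members, the isoform genes, complex II, the extremes of each complex, members with an unadjusted p under 0.05 and those under the filter. A gene that this rule names is not reported here. The members and lists were chosen with earlier results of these data known. Nothing says that libraries were prepared in batches. p-values measure the spread between mice, and floors of 3 counts cover counting error only.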

Additional observations from a re-analysis of the deposited data

Results flagged for a closer look

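In 94 groups of values (each named tested member, the mean level of either set and its share of gene counts, in naïve or withdrawn mice), 20 held a mouse that stood far from the others of its group by Dixon's criterion, where chance gives about 1 in 20 groups, or 4.7. Naïve mouse 1 stood above the other naïve mice for 9 nuclear members. Its log2(CPM + 0.5) was 8.65 for Atp5j2, 10.47 for Cox4i1, 9.18 for Cox6a1, 9.45 for Cox6b1, 9.54 for Cox7a2, 9.88 for Cox8a, 8.68 for Ndufc2, 8.22 for Ndufs4 and 7.98 for Uqcrb. Naïve mouse 5 stood below the others for mt-Nd2 (7.70), mt-Nd5 (7.25), mt-Nd6 (5.34) and the mean of the 8 tested mitochondrial members (6.53). Withdrawn mouse 2 stood below the other withdrawn mice for mt-Co1 (8.92), mt-Cytb (9.82), mt-Nd4 (7.87) and the same mean (7.69). The other values were those of Cox6b2 in naïve mouse 4 (0.87, the 1 naïve mouse with counts), Cox4i1 in withdrawn mouse 4 (9.07, low) and Uqcr10 in withdrawn mouse 5 (7.57, high). These values share libraries and are not independent of each other.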

How the results depend on the processing

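Low counts limit the isoform genes Cox4i2, Cox6a2, Cox7a1, Cox7b2, Cox8b and Cox8c. The number of calls over all genes, 1 in the comparison reported, was 137 with no filter on low counts, 27 with at least 10 counts in every mouse, 362 with DESeq2, and 0 with a replicate block, without the 3 mice with conflicting labels or without naïve mice 1 and 5. With each mouse left out it ranged from 0 to 193 (193 without withdrawn mouse 2, 6 without naïve mouse 2). For nuclear members DESeq2 called 1 (Cox6b2), and otherwise no setting called a member of either set, each mouse left out included (0 to 0). Without the 3 mice with conflicting labels the nuclear median log2 fold change was -0.40. It moved to -0.02 without naïve mice 1 and 5 and to -0.095 with voom. Over the mice left out it ranged from -0.38 to -0.13, the mitochondrial median from 0.03 to 0.39, and the differences in share of gene counts, 0.11 and -0.26 percentage points, from 0.03 to 0.17 and from -0.33 to -0.08. Of the named members, voom reversed Atp5g2 (0.078), Atp5l (-1.02), Cox7c (0.03), Ndufs1 (0.011), Sdhd (0.03), Uqcr11 (0.065) and Uqcrb (0.043). Leaving out naïve mice 1 and 5 reversed Atp5g2 (0.15), Cox7c (0.07), Cox8a (0.094), Ndufb2 (0.088), Sdhd (0.058), Uqcr10 (0.053), Uqcr11 (0.15) and Uqcrb (0.12). Leaving out the 3 mice with conflicting labels reversed mt-Co1 (-0.25), mt-Cytb (-0.072), mt-Nd1 (-0.22), mt-Nd2 (-0.068), mt-Nd4 (-0.31) and mt-Nd5 (-0.068). With a mouse left out, ranges that crossed 0 were those of Atp5g2 (-0.22 to 0.17), Atp5g3 (-0.31 to 0.033), Atp5l (-0.46 to 0.43), Cox8a (-0.27 to 0.031), Sdhc (-0.02 to 0.27), Uqcr11 (-0.25 to 0.022), Uqcrb (-0.29 to 0.042), mt-Co1 (-0.044 to 0.33), mt-Nd4 (-0.13 to 0.36) and mt-Nd5 (-0.015 to 0.34). The causes were not tested. Same-numbered mice are different animals and their deviations correlated at -0.14 to 0.16, so the numbers do not pair them. The fit with a replicate block (naïve mouse 6 has no partner) gave medians of 0.44 and -0.30 and reversed Atp5l (-0.42), with 6 nuclear members lower at an unadjusted p under 0.05, against 9 in the same 10 mice without the block.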
